A study of Mus musculus with 2 samples.

Results

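The genes examined here encode the proteasome and its direct regulators. They were taken from the deposited gene table as every name that begins with Psm, a letter from a to g and a number, without Psmb8 and Psmb9, with a mean RPKM (reads scaled to gene length and library size) over both libraries that reached 1. This gave 46 genes of 16103 in the table and of 13988 past the same filter, and no matching name fell below it. The member nearest to the limit was Psme2b, with a mean RPKM of 1.08, followed by Psmg3 at 2.88. The 20S core is represented by 15 genes, and 21 names belong to the 19S cap. There are 6 genes of activators and an inhibitor and 4 genes of 20S assembly chaperones. One of the 19S names, Psmc3ip, encodes a cofactor of meiotic recombination that binds a 19S ATPase and is no proteasome subunit, so the cap proper has 20 genes.

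The study asked whether the warmth-sensitive cation channel TRPM2 acts on brain development. It compared 1 library labelled TRPM2-KD with 1 library labelled Control, both labelled warm. Plasmids for Trpm2 knockdown or control plasmids were introduced by in utero electroporation at embryonic day 13 into the cortex of embryos of ICR mice, an outbred stock, and cells positive for green fluorescent protein were sorted at embryonic day 15. The knockdown library carries the name of 1 short hairpin, TRPM2-sh1, so what the hairpin does besides lowering Trpm2 cannot be told apart from the effect of lower Trpm2. The sources used here do not give the number of embryos, or how warm the condition was and for how long.

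The libraries held 20791236 counted reads in TRPM2-KD and 26209192 in Control. Trpm2 itself had 155 reads in TRPM2-KD and 241 in Control, a ratio of 0.811 with a counting interval from 0.658 to 0.996. Its RPKM was 0.604 in TRPM2-KD and 0.745 in Control, below the limit of 1 in both. At this low level the values show only a small decrease of Trpm2, close to the counting error. The sorted cells carried both progenitor and neuronal transcripts. The 12 radial glia markers summed to 683 RPKM in TRPM2-KD and 626 RPKM in Control, and the 8 neuron markers to 1468 and 1600 RPKM. Each group is a single library, so the differences have no replicate check and no test of the conditions was possible. Ratios are TRPM2-KD over Control on plain RPKM, and the range after a ratio is its 95% counting interval, which is exact, covers counting error only and compares these libraries. In a bulk library, fewer cells of a type and less RNA per cell cannot be told apart.

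The proteasome degrades proteins that carry ubiquitin chains. Its 20S core is a barrel of alpha and beta rings, and 3 of the beta subunits, encoded by Psmb5, Psmb6 and Psmb7, cut the substrate. The 19S cap binds the ubiquitin chain, removes it and feeds the unfolded protein into the barrel through a ring of ATPases. Immune cells and cells exposed to interferon replace the cutting subunits with immune forms encoded by Psmb8, Psmb9 and Psmb10. When the proteasome is inhibited, the transcription factor NRF1, encoded by Nfe2l1, raises the expression of proteasome genes through antioxidant response elements. In cortical progenitors and young neurons, protein degradation by the proteasome sets the levels of cell cycle regulators and of beta-catenin.

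Promoter sequences are shown for the cutting subunits and their immune forms, among which the pair of Psmb5 and Psmb8 differed most between the libraries. They are also shown for the cap genes Psmc6 and Psmd12, whose windows held both the antioxidant and the ETS core described below. Windows of other cap genes, for example Psmd4 and Psmd9, also held more than 1 of the motifs searched. The sequences are from RefSeq on build GRCm38.p6, which is later than the build of the deposited table, and give the 250 bases before the annotated start, 5′ to 3′ on the strand of the gene. Capitals mark a match, on either strand, to TGACNNNGC (a core of the antioxidant response element), CCGGAAG (a core bound by ETS factors), CCAAT or GAAA, any 2 bases and GAAA (a core of interferon response elements). A match is a description of the letters and not a known binding site. No window was in the table for Psmb7.
Psmb5 (chr14:54617996-54618245, minus strand): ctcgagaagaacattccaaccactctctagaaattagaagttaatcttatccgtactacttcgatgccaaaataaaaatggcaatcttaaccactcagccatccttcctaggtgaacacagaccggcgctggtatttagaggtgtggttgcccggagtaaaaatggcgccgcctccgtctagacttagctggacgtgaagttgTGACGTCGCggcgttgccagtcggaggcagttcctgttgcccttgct
Psmb8 (chr17:34197945-34198194, plus strand): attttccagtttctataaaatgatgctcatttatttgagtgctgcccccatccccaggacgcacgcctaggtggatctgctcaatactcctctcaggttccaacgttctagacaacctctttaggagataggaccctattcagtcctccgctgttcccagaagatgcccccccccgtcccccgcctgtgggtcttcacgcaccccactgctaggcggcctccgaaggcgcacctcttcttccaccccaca
Psmb6 (chr11:70525107-70525356, plus strand): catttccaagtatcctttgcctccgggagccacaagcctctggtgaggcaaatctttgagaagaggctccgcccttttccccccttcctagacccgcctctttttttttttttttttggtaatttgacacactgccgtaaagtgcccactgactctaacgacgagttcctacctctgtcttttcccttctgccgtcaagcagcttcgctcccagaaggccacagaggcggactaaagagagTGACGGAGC
Psmb9 (chr17:34187331-34187580, minus strand): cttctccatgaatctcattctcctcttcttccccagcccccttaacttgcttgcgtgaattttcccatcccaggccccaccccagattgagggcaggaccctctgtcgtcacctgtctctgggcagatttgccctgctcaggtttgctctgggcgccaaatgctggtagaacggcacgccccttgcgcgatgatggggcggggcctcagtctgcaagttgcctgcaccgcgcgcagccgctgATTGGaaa
Psmb10 (chr8:105938393-105938642, minus strand): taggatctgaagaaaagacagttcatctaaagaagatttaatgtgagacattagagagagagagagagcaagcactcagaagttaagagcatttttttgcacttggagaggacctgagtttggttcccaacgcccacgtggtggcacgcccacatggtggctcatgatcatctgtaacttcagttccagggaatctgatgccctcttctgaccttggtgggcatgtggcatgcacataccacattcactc
Psmc6 (chr14:45329574-45329823, plus strand): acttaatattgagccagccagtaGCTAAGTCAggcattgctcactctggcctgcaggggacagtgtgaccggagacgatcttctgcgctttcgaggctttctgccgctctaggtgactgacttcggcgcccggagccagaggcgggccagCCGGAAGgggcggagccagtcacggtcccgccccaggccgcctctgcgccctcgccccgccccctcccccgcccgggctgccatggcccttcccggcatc
Psmd12 (chr11:107479278-107479527, plus strand): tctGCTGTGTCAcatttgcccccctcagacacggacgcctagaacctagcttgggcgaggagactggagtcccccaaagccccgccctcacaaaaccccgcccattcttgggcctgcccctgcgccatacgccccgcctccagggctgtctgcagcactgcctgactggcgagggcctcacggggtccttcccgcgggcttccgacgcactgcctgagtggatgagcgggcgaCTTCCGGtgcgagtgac

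The core of the antioxidant response element lay 47 bases before the start of Psmb5 and 9 bases before that of Psmb6, counting to the first base of the match. It was also present in the windows of Psmc6, Psmd12 and Psmd9. In all, 5 of 42 member windows held it (11.9%), against 11.4% of the 12501 windows of genes past the filter. The ETS core was unevenly spread over the members. It occurred in 10 of 19 windows of 19S cap names (52.6%) and in 1 of 13 windows of 20S core genes (7.69%), that of Psma6. Over all member windows the ETS core occurred in 33.3%. Among windows of genes past the filter it occurred in 12.8%, and in the whole table of 32851 windows in 6.91%. CCAAT was found in 31.0% of member windows and in 35.0% of windows of genes past the filter. The interferon core occurred in 3 of 42 member windows (7.14%), those of Psmb3, Psmd4 and Psmd9, and in none of those printed. Among windows of genes past the filter it occurred in 2.49%, and in the whole table in 2.98%. Windows were found for 39 of the 46 members, and some genes have more than 1.

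Across the members, levels in both libraries were close. The median log2 difference, on the scale of log2(RPKM + 1) and taken as TRPM2-KD minus Control, was -0.08 over the 46 genes, with 32 below 0 and 14 above. Of all genes past the filter 50.7% were below 0 and 49.3% above, with a median of -0.004. A gene was counted as lower or higher when this difference reached 0.32 in size. Psmb5 and Psmg3 were the only members counted as lower, and no member was counted as higher. Among all genes past the filter 9.59% were lower and 10.3% higher by that limit. At 2-fold no member was called in either direction, against 0.686% of all genes lower and 0.915% higher. Counting intervals lay below 1 for 24 members, above 1 for 3 and spanned 1 for 19, where 28.4% of all genes had an interval below 1 and 28.0% had one above. The authors' deposited table calls 618 genes (3.84%) by the rule of the series (p-value below 0.05 and log2 fold change beyond 1 in size), and none of the 46. In that table the lowest p-value of a member is 0.456, for Psmg3, and the adjusted p-value of every member is 1.

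**Figure D1:**
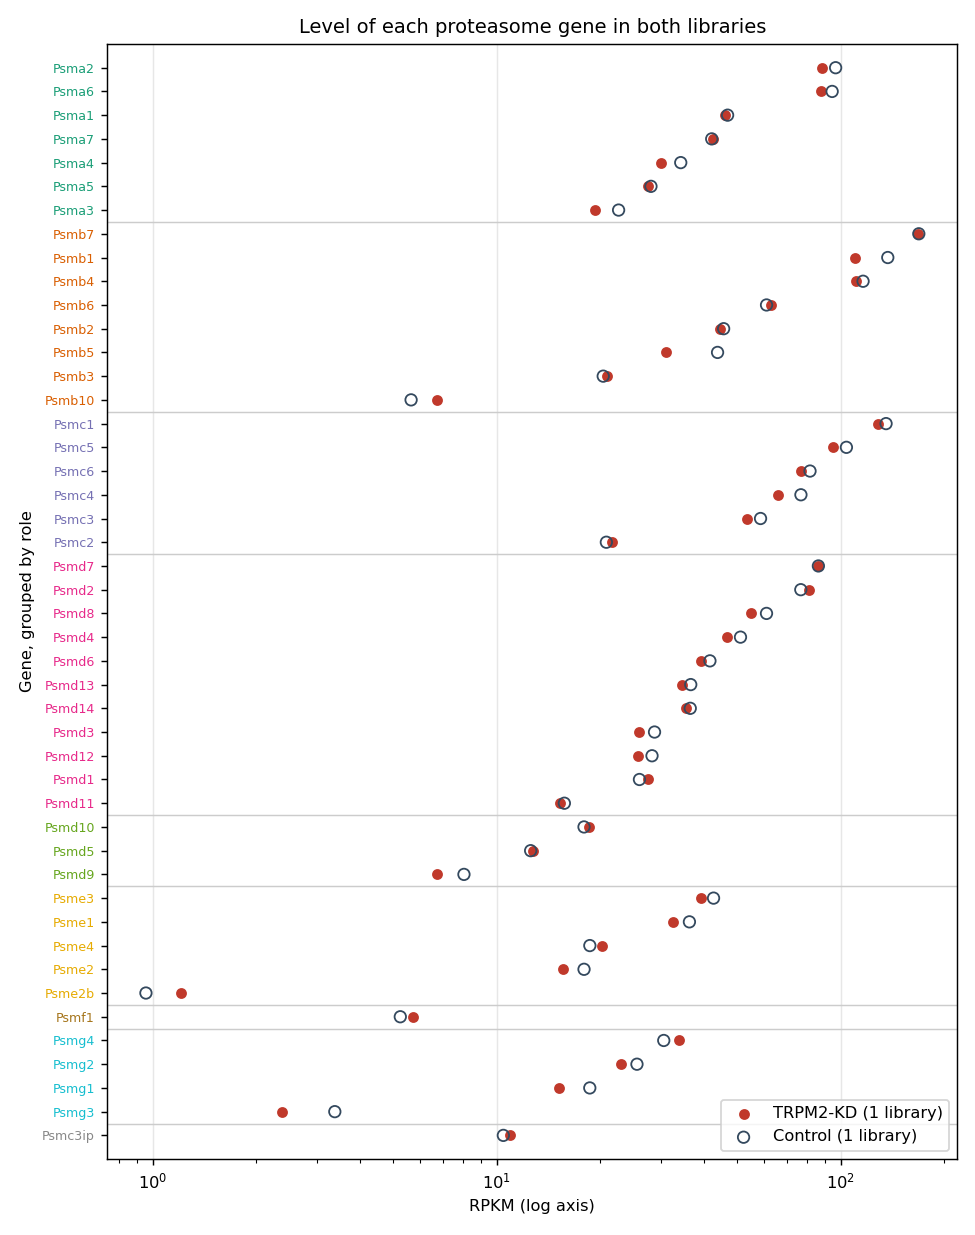
RPKM on a log axis for each of the 46 genes, grouped by role and ordered by the Control level within a role, with filled red points for the TRPM2-KD library and open circles for the Control library (1 library each). The points of a gene nearly coincide for most genes, and Psmb5 and Psmg3 show the widest gaps on the side of lower TRPM2-KD values.

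The 7 alpha subunits, which form the outer rings and the gate of the barrel, were equal or slightly lower in TRPM2-KD. Their median log2 difference was -0.10, with 6 below 0, and 4 counting intervals lay below 1. Psma3 had 19.3 RPKM in TRPM2-KD and 22.6 in Control, a ratio of 0.855 (0.801 to 0.912), the lowest of the ring. Psma4 had 30.0 RPKM in TRPM2-KD and 34.3 in Control, a ratio of 0.873 (0.817 to 0.934). Psma2 and Psma6, the most abundant of the alpha genes by RPKM, followed at ratios of 0.913 (0.858 to 0.971) and 0.931 (0.881 to 0.983). The other 3 were near equality. Psma1 was at 0.981, Psma5 at 0.984 and Psma7 at 1.01, all with intervals that span 1.

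The beta genes showed the widest range of any role in the core, and the cutting subunits differed among themselves. Psmb5, which encodes the chymotrypsin-like site, had 31.2 RPKM (565 reads) in TRPM2-KD and 43.9 RPKM (1003 reads) in Control. Its ratio of 0.710 (0.639 to 0.788) was the lowest of the core. Psmb6, the caspase-like site, had 62.9 RPKM in TRPM2-KD and 60.9 in Control, a ratio of 1.03 (0.979 to 1.09). Psmb7, the trypsin-like site and the most abundant member, had 168 RPKM in TRPM2-KD and 169 in Control, a ratio of 0.997 (0.958 to 1.04). The intervals of Psmb6 and Psmb7 span 1 and lie wholly above that of Psmb5. The annotation places the microRNA gene Mir686 on exons of Psmb5, and how reads in such overlaps were counted is not stated in the labels or the table.

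Among the structural beta genes only Psmb1 stood well below 1. It had 110.2 RPKM (2377 reads) in TRPM2-KD and 137 RPKM (3728 reads) in Control, a ratio of 0.804 (0.763 to 0.846), and a log2 difference of -0.31, just short of the limit for counting. Psmb4 was at 0.955, with an interval that reaches 1.00 at its upper end. Psmb2 and Psmb3 were at 0.973 and 1.03 with intervals that span 1. Summed, the 15 core genes held 27675 reads in TRPM2-KD and 37052 in Control, a ratio of 0.942 (0.927 to 0.956) after scaling to the library totals. This sum includes Psmb5 and Psmb1, the lowest ratios of the core, and does not describe each gene. Of the 15 intervals 7 lay below 1, 8 spanned 1 and 0 lay above. Among all genes past the filter 28.4% had an interval below 1 and 28.0% had one above. For genes of 1000 to 3000 bases with a mean RPKM of 10 or more these shares were 42.7% and 16.0%. The median log2 difference of the core genes was -0.04, with 11 below 0 and 4 above.

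**Figure D2:**
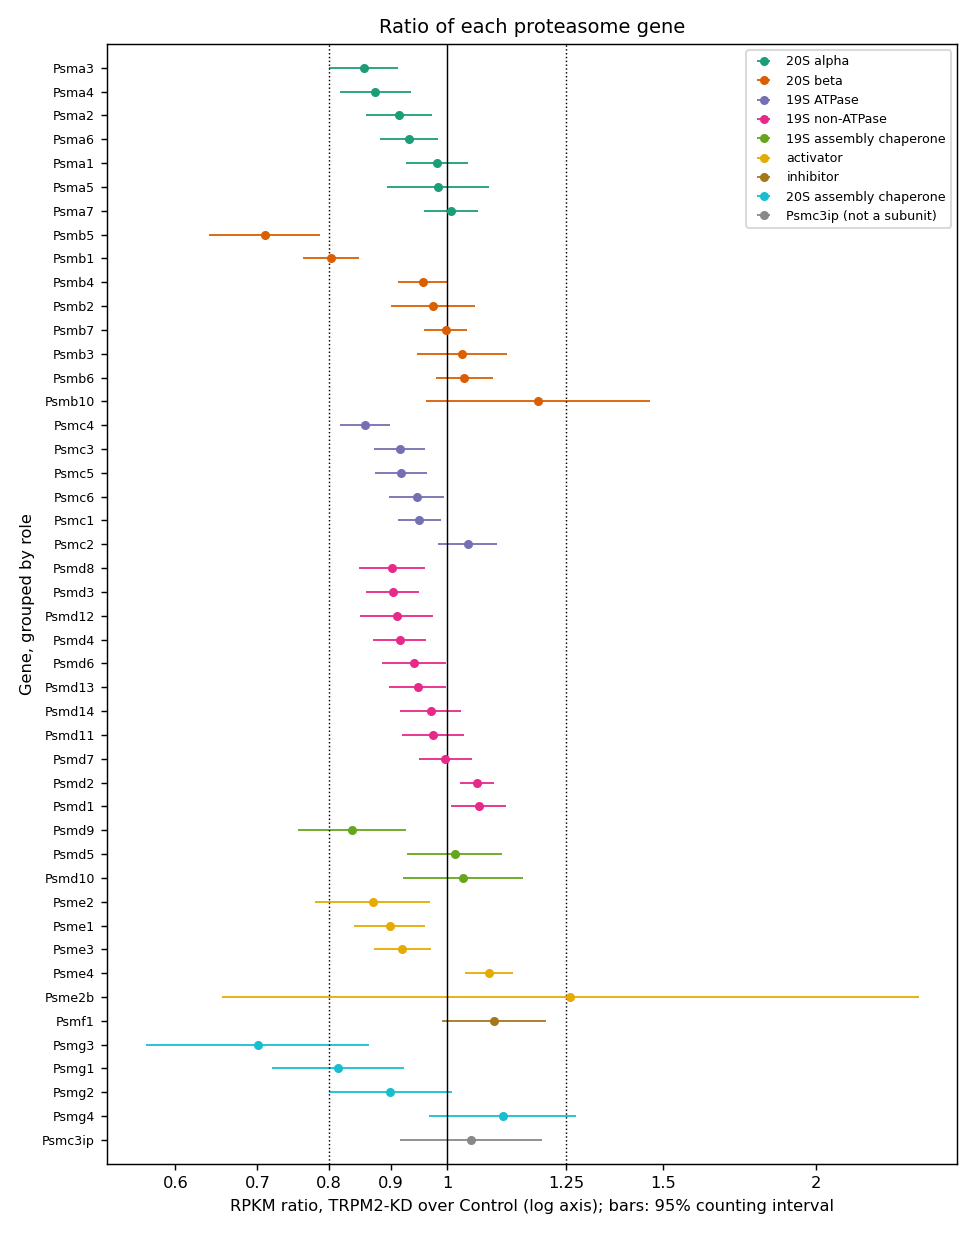
Ratio of RPKM, TRPM2-KD over Control, on a log axis for each of the 46 genes, coloured and grouped by role; bars are 95% counting intervals, the solid line marks 1 and the dotted lines mark the fold that corresponds to 0.32 on the log2 scale. Psmb5 and Psmg3 lie beyond the lower line, Psme2b lies at 1.26 on plain RPKM, and the widest bar is that of Psme2b, which had 21 reads in each library.

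The immune forms of the cutting subunits did not move together. Psmb10, the immune form of the Psmb7 site, had 6.69 RPKM (177 reads) in TRPM2-KD and 5.64 RPKM (188 reads) in Control. Its ratio of 1.19 (0.961 to 1.47) spans 1, and at this depth a difference was not detectable. Psmb8, the immune form of the Psmb5 site, is no member by the rule and had 5.25 RPKM in TRPM2-KD and 3.04 in Control, a ratio of 1.73 (1.45 to 2.07). Psmb9, the immune form of the Psmb6 site, had 0.906 RPKM (69 reads) in TRPM2-KD and 1.30 RPKM (125 reads) in Control, a ratio of 0.696 (0.511 to 0.941). Constitutive forms thus made up most of the RPKM at every site in both libraries. At the Psmb5 site the immune form held 14.4% of the RPKM of the pair in TRPM2-KD and 6.47% in Control. The shares were 1.42% and 2.09% at the Psmb6 site, and 3.83% and 3.23% at the Psmb7 site. The sum of Psmb5 and Psmb8 was 36.4 RPKM in TRPM2-KD and 46.9 in Control.

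Most markers of microglia and macrophages, cells in which the immune forms are well expressed, were higher in TRPM2-KD, as was Psmb8 but not Psmb9. Of the 12 listed markers 11 passed the filter, 10 of these were above 0 on the log2 scale, and none was at 0 reads in either library. Cd68 was below 0, at a ratio of 0.798 (0.685 to 0.928). The 12 summed to 247 RPKM in TRPM2-KD and 163 in Control. The part of these cells in the values of Psmb8, Psmb9 and Psmb10 was not tested. Of 10 genes of the immunoproteasome and antigen processing, 4 were counted as higher and none as lower, with a median log2 difference of 0.22. Among all genes past the filter 10.3% were higher and 9.59% lower by that limit. The list includes Psmb8, Psmb9, Psmb10, Psme1 and Psme2, which are also reported singly. Erap1, a peptidase that trims antigens, was at 2.43 (1.91 to 3.10), and the peptide transporter genes Tap2 and Tap1 were at 1.68 and 1.43. Their levels were low. Erap1 had 2.44 RPKM in TRPM2-KD and 1.01 in Control, Tap2 had 3.63 and 2.17, and Tap1 had 3.11 and 2.19. Psme1 and Psme2, the interferon-inducible activator genes in the same list, went the other way.

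**Figure D3:**
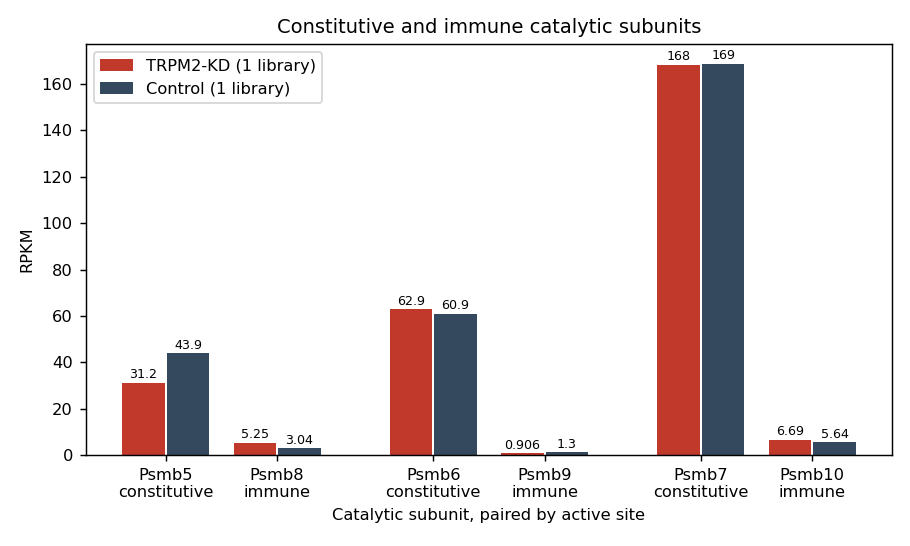
RPKM of the constitutive and immune cutting subunits, paired by active site, with a red bar for the TRPM2-KD library at the left of a dark bar for the Control library (1 library each, no error bars). Psmb5 is lower and Psmb8 higher in TRPM2-KD, while the constitutive bars of the other sites are nearly equal.

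The 6 ATPases of the cap, which unfold the substrate and open the gate, were mostly slightly lower in TRPM2-KD. The median log2 difference of these ATPase genes was -0.10, and 5 of 6 counting intervals lay below 1. Intervals below 1 were common, in 28.4% of all genes past the filter. They occurred in 42.7% of genes of 1000 to 3000 bases with a mean RPKM of 10 or more. Psmc4 had 65.6 RPKM in TRPM2-KD and 76.7 in Control, a ratio of 0.856 (0.817 to 0.897), the lowest of the ring. Psmc3 at 0.915, Psmc5 at 0.917, Psmc6 at 0.944 and Psmc1 at 0.949 formed a narrow group. Psmc1 was the most abundant cap gene, with 129 RPKM in TRPM2-KD and 136 in Control. Psmc2 was the exception at 1.04 (0.982 to 1.10), an interval that spans 1. The summed reads of the ATPase genes gave a ratio of 0.931 (0.913 to 0.949).

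The 11 non-ATPase subunits of the cap stayed within a range of 0.901 to 1.06. Psmd2 and Psmd1, the large scaffold subunits to which ubiquitin receptors and cofactors dock, were the only cap genes with an interval above 1. Such an interval was found for 28.0% of all genes past the filter. Psmd2 had 81.1 RPKM in TRPM2-KD and 76.6 in Control, a ratio of 1.06 (1.02 to 1.09). Psmd1 had 27.6 RPKM in TRPM2-KD and 26.0 in Control, a ratio of 1.06 (1.01 to 1.12). Psmd4, a receptor for ubiquitin chains, was lower at 0.914 (0.870 to 0.961). Psmd14, the deubiquitinase that removes the chain, was at 0.969 (0.915 to 1.03) and Psmd7, its partner, at 0.997 (0.949 to 1.05). The remaining subunits of the lid lay between Psmd8 at 0.901 (0.847 to 0.958) and Psmd11 at 0.974 (0.918 to 1.03), with Psmd3 at 0.903 and Psmd12 at 0.909 close to the lower end.

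Psmd5, Psmd9 and Psmd10 encode chaperones of cap assembly that leave the finished particle. Psmd9 had 6.72 RPKM in TRPM2-KD and 8.04 in Control, a ratio of 0.836 (0.755 to 0.925), the lowest of the cap names. Psmd5 and Psmd10 (gankyrin) were at 1.01 and 1.03 with intervals that span 1. Over all 21 cap names the reads were 49346 in TRPM2-KD and 64886 in Control, a ratio of 0.959 (0.948 to 0.970), and the median log2 difference was -0.08. No cap gene was counted as lower or higher, against 9.59% and 10.3% of all genes past the filter. The intervals of the summed reads of core and cap overlap. The summed reads of the 2163 genes of 1000 to 3000 bases with a mean RPKM of 10 or more gave 0.958 (0.957 to 0.959). That is close to the ratio of the cap, but the sets are unlike. Some cap names, such as Psmd11 with 6391 bases, lie outside that range, and longer genes had higher differences in the whole table. The 28 members of any role inside the range gave 0.935 (0.924 to 0.945). Whether the cap differs from other genes was not tested. Psmc3ip was at 1.05 (0.916 to 1.19), and without it the cap ratio was 0.958.

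The activators split by kind. Psme1 and Psme2, which encode the alternating subunits of the PA28 ring that replaces the cap in immune cells, were at 0.897 (0.839 to 0.959) and 0.869 (0.780 to 0.968). Psme3, the nuclear form of PA28, had 39.3 RPKM in TRPM2-KD and 42.7 in Control, a ratio of 0.919 (0.872 to 0.969). Psme4, the large activator PA200, had 20.2 RPKM in TRPM2-KD and 18.7 in Control, a ratio of 1.08 (1.03 to 1.13), and was the 1 activator with an interval above 1. Psme2b, a near copy of Psme2 with 21 reads in each library, was at 1.26 (0.655 to 2.43), and its reads are uncertain because they can be shared with Psme2. Psmf1, the inhibitor PI31, was at 1.09 (0.990 to 1.20).

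The chaperones of 20S assembly act in pairs, and 3 of the 4 were below 0 on the log2 scale. Psmg1 had 15.2 RPKM in TRPM2-KD and 18.7 in Control, a ratio of 0.814 (0.719 to 0.921), and its partner Psmg2 had 23.0 and 25.6 RPKM, a ratio of 0.899 (0.801 to 1.01). Psmg3 had 2.37 RPKM (143 reads) in TRPM2-KD and 3.39 RPKM (257 reads) in Control, a ratio of 0.701 (0.568 to 0.864). Its partner Psmg4 had 34.0 RPKM in TRPM2-KD and 30.6 in Control, a ratio of 1.11 (0.967 to 1.27), so the members of that pair stood on opposite sides of 1. These are among the thinly read members, with 143 to 507 reads in TRPM2-KD and 257 to 711 in Control.

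Over the whole table the log2 difference was higher in longer genes. Members above and below 2000 bases had close medians, while the few members in the deciles of longest genes had medians above 0. The length behind RPKM had a median of 2139 bases for the members, with a range of 555 to 8392, against a median of 3494 for all genes past the filter. In the shortest decile of all genes the median log2 difference was -0.06, and in the longest it was 0.07. The 22 members under 2000 bases had a median of -0.07, with 16 below 0 and 6 above, and the 24 of 2000 bases or more had one of -0.08, with 16 below 0 and 8 above. Within deciles the members did not always lie near all genes. In the fourth decile (2342 to 2894 bases) the 5 members had a median of -0.13, against -0.04 for all genes, and in the seventh (4171 to 4987 bases) the 3 members had one of -0.14, against 0.01. For comparison, the 2163 genes of 1000 to 3000 bases whose mean RPKM reached 10 had a median of -0.08. Of these genes 66.9% were below 0 and 33.1% above, and 42.7% of the intervals lay below 1 and 16.0% above. The 28 members in that range had a median of -0.09, with 24 below 0 and 4 above, 17 intervals below 1 and none above. Summed reads gave a ratio of 0.958 (0.957 to 0.959) for the 2163 genes and 0.935 (0.924 to 0.945) for the 28 members. By the limit of 0.32, 9.25% of those 2163 genes were lower and 3.65% higher, and none of the 28 members was either. The range itself leaves out Psmb5, with 872 bases, and Psmg3, with a mean RPKM of 2.88, the only members past that limit. The absence of a call among the 28 therefore follows from the range. At 2-fold 0.0462% of those genes were higher. The members from the eighth decile on (4988 bases or more), Psmc2, Psmd11, Psmf1 and Psme4, had log2 differences of 0.05, -0.04, 0.11 and 0.11. In each shorter decile the median of the members was below 0.

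**Figure D4:**
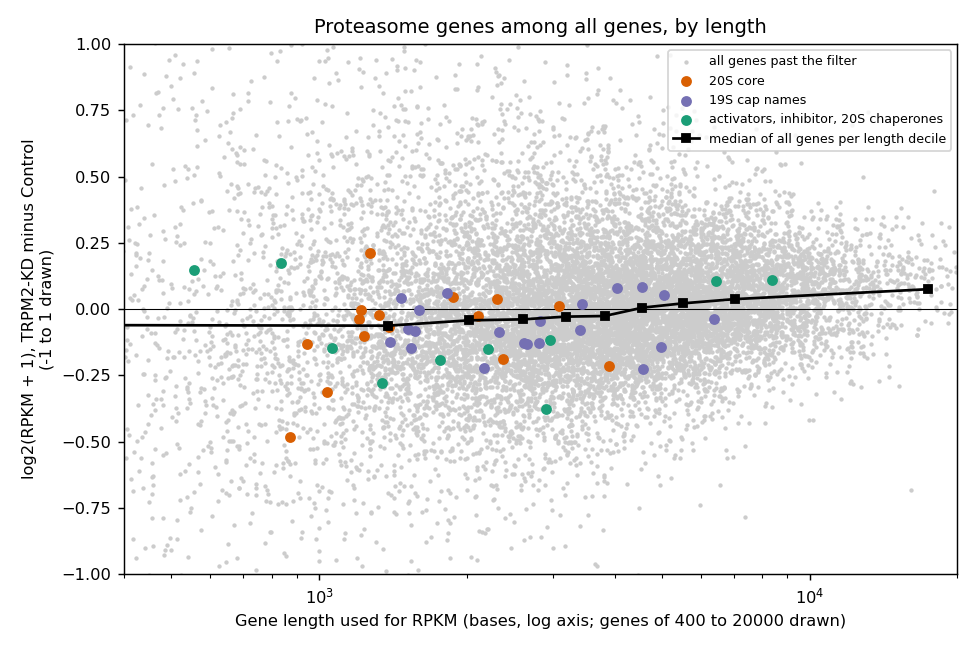
Log2(RPKM + 1) difference, TRPM2-KD minus Control, against the gene length used for RPKM on a log axis, with grey points for all genes past the filter, coloured points for the members and black squares for the median of all genes in each decile of length. The median of all genes runs from -0.06 in the shortest decile to 0.07 in the longest, and 42 of the 46 members lie within 0.25 of 0.

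Medians below 0 were also found for 3 other large complexes of housekeeping genes. The COP9 signalosome, a relative of the cap's lid, had a median log2 difference of -0.11 over 9 genes, with 7 below 0. The CCT chaperonin, which folds tubulin and actin, had one of -0.09 over 8 genes, with 6 below 0 and Cct4 lowest at a ratio of 0.853 (0.822 to 0.884). The translation factor eIF3, which shares its subunit folds with the lid, had one of -0.16 over 12 genes, with 11 below 0, and Eif3m was at 0.720 (0.666 to 0.779). No difference between these complexes and the proteasome was tested.

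The other genes of the pathway were mixed. NRF1 (Nfe2l1) had 35.7 RPKM in TRPM2-KD and 37.5 in Control, a ratio of 0.952 (0.914 to 0.992). Its relative Nfe2l2 was at 0.975 with an interval that spans 1. Of the 12 genes for transcription of the proteasome only Maff, a small partner of these factors, was counted as lower, at 0.603 (0.470 to 0.770), and none as higher. Maff was thinly read, with 2.24 RPKM (99 reads) in TRPM2-KD and 3.72 RPKM (207 reads) in Control. Among all genes past the filter 9.59% were counted as lower and 10.3% as higher, so 1 gene of 12 is near that share. Keap1, which holds NRF2 in check, was at 0.818 (0.761 to 0.880).

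Of 8 subunits and receptors outside the Psm names 6 were below 0, with a median log2 difference of -0.07 and none past the limit. By that limit 9.59% of all genes past the filter were lower and 10.3% higher. Shfm1, the small cap subunit now named Sem1, was at a ratio of 0.813 (0.749 to 0.882), while Adrm1, a ubiquitin receptor of the cap, was at 1.05 with an interval that spans 1. Ddi2, a ubiquitin-binding protease that activates NRF1, was at 1.169 (1.092 to 1.251) and was the 1 gene of this list with an interval above 1. Among the 4 measured genes of assembly and maturation 3 were above 0. Pomp, the chaperone that matures the beta ring, had 146 RPKM in TRPM2-KD and 136 in Control, a ratio of 1.07 (1.01 to 1.13). The scaffold gene AI314180 (Ecm29) was at 1.12 (1.06 to 1.18) and Txnl1, a thioredoxin bound to the cap, at 0.887 (0.833 to 0.945).

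Enzymes that work on ubiquitin at the proteasome went both ways, 4 above 0 and 3 below. The deubiquitinase gene Uchl5 was at 1.20 (1.08 to 1.34) and Zfand2b, a ubiquitin-binding protein of the endoplasmic reticulum, at 0.790 (0.688 to 0.905). Of the 6 ubiquitin and E1 genes Uba6, an E1 enzyme, was the 1 gene past the limit, at 1.35 (1.21 to 1.5). For this and the lists that follow, 10.3% of all genes past the filter were higher and 9.59% lower by that limit. Rps27a, which encodes ubiquitin fused to a ribosomal protein and has many pseudogenes, was at 0.848, and its reads are uncertain. The segregase p97 and its cofactors had a median of -0.02 over 10 genes with none past the limit, with Ufd1l at 0.840 (0.785 to 0.898) and Nsfl1c at 0.867 (0.828 to 0.908). Autophagy genes, the other main route of protein degradation, had a median of -0.11 over 19 genes, with 13 below 0. Map1lc3b, which marks autophagosomes, was the only one past the limit, at 0.731 (0.694 to 0.768), and the lipid scramblase gene Atg9a was at 0.814.

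**Figure D5:**
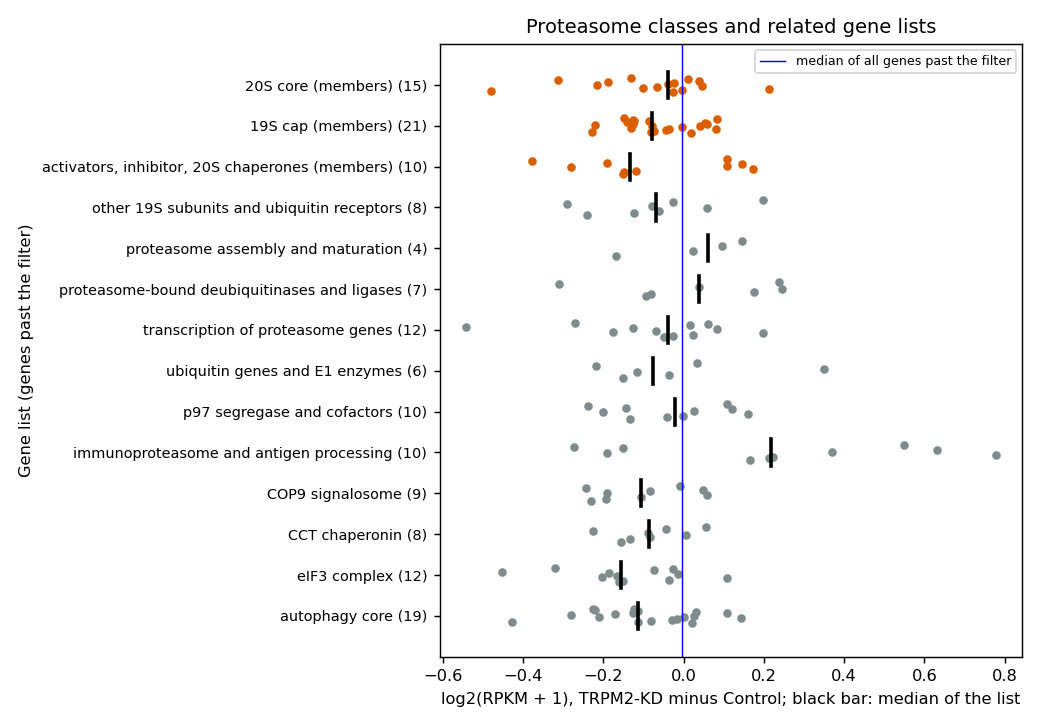
Log2(RPKM + 1) difference, TRPM2-KD minus Control, for each gene past the filter in 3 pooled groups of members (orange) and in related lists (grey), with the number of genes in brackets, a black bar at each median and a blue line at the median of all genes. The medians are -0.04 for the 20S core, -0.08 for the 19S cap names and -0.13 for the activators, inhibitor and 20S chaperones together, and the list of the immunoproteasome and antigen processing has the highest median, 0.22.

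Levels differed far more between members than between libraries, and they depend on the length used. Subunits that occur in equal copy number in the barrel spanned 8.70-fold in RPKM in TRPM2-KD and 8.27-fold in Control, leaving out Psmb10, from Psma3 or Psmb3 at the low end to Psmb7 at the top. The length behind RPKM was a median of 1.38 times that of the principal mRNA in the GENCODE M21 annotation, with a range of 0.325 to 3.37, and was over 1.5 times as long for 19 of 46 members. Psma7 is the extreme case, with a length of 3076 bases against an mRNA of 914. With the mRNA length its RPKM would be 143 in TRPM2-KD and 142 in Control, in place of 42.5 and 42.2. With mRNA length the core genes spanned 6.66-fold in TRPM2-KD and 5.90-fold in Control. The ratio between the libraries does not depend on this choice.

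The members lie on 16 chromosomes, with 10 of them on chromosome 11 and 6 on chromosome 2. In the deposited annotation 40 of the 46 name the proteasome as a cellular component. The others are the 4 Psmg genes, Psmc3ip and Psmc2. Besides the Psm names, 22 genes past the filter carry that term, and they were evenly split, with 11 above 0, 11 below and a median log2 difference of -0.002. Exons of 13 members overlap those of another gene in GENCODE M21, 10 of them on the opposite strand. The labels and the table do not say whether reads were counted by strand, so the reads of these members (for example Psmb7 with Nek6, Psmc3 with Slc39a13 and Psmd13 with Sirt3) are uncertain to that extent.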

How the data were processed

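One table of the whole series was analysed. Per the file headers, each library has a column of counts and one of RPKM, both made by the authors. The deposited counts are whole reads per gene, not normalised, and the deposited RPKM values are those counts scaled to gene length and total reads. The table also holds the authors' log2 fold change, mean log2 CPM and p-values, per the file headers, with no tool named. The submitters' processing notes name HTSeq 0.6.0, TopHat2 2.0.12, Bowtie2 2.2.3 and the build mm9 without saying what each did. How strand and reads with several matches were treated is not given in the sources used here.

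Differences were taken as log2(RPKM + 1), TRPM2-KD minus Control, which understates the change of low genes, for genes whose mean RPKM reached 1, and were counted past 0.32 and past 2-fold. Ratios are of plain RPKM. Their exact conditional binomial (Clopper-Pearson) 95% intervals treat reads as independent molecules and cover counting error only. The computation was tested on simulated data. No replicate exists, so no test and no p-value was computed. The members and gene lists were chosen with earlier results of these data known. Named genes are the cutting subunits, the ATPases, Psmd4, Psmd14, the 4 highest and 4 lowest ratios of core and cap, every Psme, Psmf and Psmg gene, and the 2 largest differences of each list, with Nfe2l1, Nfe2l2, Pomp, Adrm1, Psmb8, Psmb9 and Trpm2, of which 1 is not reported here. Others were named after their values were seen, and so were the genes whose promoters are printed and the range of length and level used for comparison. Marker lists of endothelial cells, meningeal fibroblasts and erythroid cells summed to 107, 64.0 and 88.8 RPKM in TRPM2-KD and to 126, 80.7 and 73.5 RPKM in Control. GENCODE M21 and RefSeq (GRCm38.p6) are of a later build than mm9 and gave gene types, mRNA lengths, overlaps and promoters. Python 3.11.15, SciPy 1.17.1 and edgeR 4.0.16, the last only for TMM factors on the deposited counts, were used. Alternatives were other scalings, filters, a pseudocount of 0.1, a stricter name rule and the authors' fold changes.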

Additional observations from a re-analysis of the deposited data

How the results depend on the processing

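Of 48 values recomputed for 8 results under 7 alternatives, 46 stayed within set limits, whose sizes are not given here. None of the ratios and medians changed direction, and counts of members have no direction to change. These alternatives were TMM and median-of-ratios scaling, no expression filter, a minimum mean RPKM of 5, names of a Psm letter and number only, a pseudocount of 0.1 and the authors' deposited log2 fold changes. With a minimum mean RPKM of 5 the number of members lower by 0.32 or more on the log2 scale was 1 in place of 2, because Psmg3 lies below that filter. With the authors' deposited log2 fold changes, 1 member, Psme2b, was higher by 0.32 or more, in place of 0. Members with an interval below 1 numbered 24, and 23 under TMM or median-of-ratios scaling. These scalings, with factors of 1.0005 and 1.0012, moved the median of all genes by under 0.01. Every member passed the reported filter, so leaving that filter out could alter none of the 8 results. The filter of 5 removed no core or cap gene, and the stricter name rule removed no core gene. Many recomputed values were thus fixed beforehand, and the number that stayed says little about how stable the results are. Depth limits the thinly read members most: with 21 reads in each library, the interval of Psme2b runs from 0.655 to 2.43. No paired analysis was possible because there is 1 library per group.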

Other observations

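In the deposited annotation, the line of Psmc2 carries the protein name of a LINE-1 retrotransposon in place of a 19S ATPase, and it is the 1 subunit of core and cap without a proteasome term there. Its values were those of an ordinary cap gene, with 2268 reads in TRPM2-KD and 2752 in Control.

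The position that carries the lowest ratio of the core, Psmb5, is also the one with the highest ratio of an immune form, Psmb8. The fold between constitutive and immune RPKM at that site was 5.94 in TRPM2-KD and 14.5 in Control.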
